A study of Mus musculus with 10 samples.

Results

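The 9 genes *Kat2a*, *Kat2b*, *Hat1*, *Kat6a*, *Kat6b*, *Kat7*, *Kat8*, *Ep300* and *Crebbp* code for the main histone acetyltransferases of mouse cells other than Kat5. They were picked by symbol from the 43346 genes of the count table, and each was found in 1 row. The question was whether loss of Kat5, itself a histone acetyltransferase, or of its partner Ep400 went along with another level of these transcripts. RNA came from O9-1 cells, an established mouse line of cranial neural crest cells. There were 4 independent wildtype samples (WT/1 to WT/4), 3 Kat5 ko clones (Kat5/1 to Kat5/3) and 3 Ep400 ko clones (Ep400/1 to Ep400/3).

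Each ko clone had grown from 1 cell edited with CRISPR/Cas9. Frameshifts were present in all alleles of the Kat5 ko clones and of Ep400/1, whereas Ep400/2 and Ep400/3 kept some alleles with in-frame deletions in the part that codes for the ATP-binding site. The paper expects these deletions to inactivate Ep400 at the least. Its antibody stainings detected no Ep400 protein in any Ep400 ko clone. Kat5 protein was not detected in any Kat5 ko clone by staining or Western blot. No edited control clone was among the samples, so that effects of editing, sorting and cloning and effects of the lost gene cannot be told apart in a comparison with wildtype. O9-1 cells are tetraploid, and all samples were grown on Matrigel in conditioned medium without further treatment. In bulk RNA such as this, fewer cells of a kind and less RNA per cell cannot be told apart.

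Histone acetyltransferases transfer the acetyl group of acetyl-CoA to lysines of histones, which loosens the contact between histones and DNA and creates binding sites for bromodomain proteins. They fall into families by their catalytic domain. The GNAT family contains Kat2a (Gcn5) and Kat2b (Pcaf), the alternative catalytic subunits of the SAGA and ATAC complexes, and Hat1, which acetylates newly made histone H4 before it enters chromatin. The MYST family contains Kat5 (Tip60) and its relatives Kat6a (Moz), Kat6b (Morf), Kat7 (Hbo1) and Kat8 (Mof). Ep300 and Crebbp form another family of large co-activators that act at enhancers. Neural crest and craniofacial development are known to depend on several of them, among them Kat6a, Kat6b, Ep300 and Crebbp.

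Between 30968945 and 48301792 reads per library were counted on genes, and mitochondrial genes took 0.893% to 3.24% of them. Of 11 markers of the cranial neural crest, 8 had a mean of at least 1 CPM (counts per gene scaled to the size of the library) in wildtype cells, led by *Prrx1*, *Ets1*, *Twist1* and *Sox9*. *Foxd3* and *Sox10*, which define early migratory crest, had 0 counts in all 10 libraries. The summed level of the 11 markers was 994 to 1298 CPM in wildtype, 985 to 1141 CPM in Kat5 ko and 1238 to 2503 CPM in Ep400 ko libraries. *Prrx1* alone made up 2099 CPM of the highest sum, in Ep400/3. The markers did not move together in Ep400 ko. *Twist1*, *Snai2*, *Tfap2a* and *Msx2* lay above the wildtype range in all Ep400 ko clones, and *Snai1*, *Sox9* and *Ets1* below it. Of all tested genes 16.1% lay above and 14.1% below. Summed markers of smooth muscle ranged from 5.88 to 16.9 CPM in wildtype, from 0.457 to 687 CPM in Kat5 ko, with the highest value in Kat5/1 (*Acta2* 506 and *Tagln* 181 CPM), and from 2.31 to 57.2 CPM in Ep400 ko libraries. The other markers of this list were not raised in Kat5/1. *Cnn1* had 0.083 and *Myh11* 0.028 CPM there, against at most 0.09 and 0.162 CPM in wildtype. Markers of pluripotent cells, blood cells and skeletal muscle summed to at most 0.438 CPM in any library. Markers of epithelium reached 1.17 CPM and markers of endothelium 1.65 CPM, both in wildtype. The part of these differences in the results below was not tested.

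The targeted transcripts were lower under their own labels. *Kat5* had 57.5, 48.8, 52.3 and 56.5 CPM in wildtype and 22.9, 16.4 and 23.2 CPM in Kat5 ko clones (log2-fold change −1.40, SE 0.17, adjusted p = 0.0217, edgeR quasi-likelihood test with Benjamini-Hochberg adjustment over all genes). This call was lost without WT/1, WT/3, WT/4 or Kat5/3, when the log2-fold change stayed between −1.47 and −1.24. *Ep400* had 157 to 165 CPM in wildtype and 54.7, 61.3 and 59.7 CPM in Ep400 ko clones (log2-fold change −1.44, standard error 0.12, adjusted p = 0.00121). *Kat5* was also measured in Ep400 ko clones, with 64.5, 79.1 and 69.0 CPM, all above the wildtype range, and the log2-fold change of 0.40 (95% interval 0.10 to 0.70) had an adjusted p of 0.0760 by edgeR. In Ep400 ko 16.1% of all genes lay above the wildtype range, and *Kat5* is on chromosome 19, whose median was 0.27, 0.25 and 0.13 on the log2 scale in these clones. With offsets for the chromosome medians the log2-fold change of *Kat5* was 0.18 (adjusted p = 0.353, edgeR). *Ep400* in Kat5 ko clones had 147, 230.0 and 167 CPM, which spans the wildtype range.

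Kat5/1 stood apart from the other Kat5 ko clones, also in the smooth muscle markers *Acta2* and *Tagln*. With all clones, 67 of 13434 tested genes (0.499%) passed an adjusted p of 0.05 between Kat5 ko and wildtype. Without Kat5/1, 2651 of 13703 genes (19.3%) did. Without Kat5/2 it was 36 of 13825 genes (0.26%), and without Kat5/3 it was 4 of 13735 (0.0291%). Values without Kat5/1 are given beside the main results on Kat5 ko. This clone was singled out from these same data, so that calls without it describe Kat5/2 and Kat5/3 and are no independent support.

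Levels of different genes were compared per kilobase of merged exons, as RPKM, which is CPM divided by that length. In wildtype cells the 9 genes spanned a range from 2.10 to 41.3 RPKM. *Kat2a* was the most abundant at 41.3 ± 6.63 RPKM (SD, n = 4), followed by *Hat1* at 32.4 ± 6.13 and *Kat7* at 22.6 ± 1.65 RPKM (SD, n = 4). Neighbours in this order overlapped for these 3 genes. *Kat5* itself, at 15.3 ± 1.13 RPKM (SD, n = 4), lay below the range of *Kat7* and overlapped with *Kat6a* at 14.6 ± 0.884 RPKM (SD, n = 4).

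*Ep300* reached 10.4 ± 1.68 RPKM (SD, n = 4) and did not overlap with *Kat6a* above or with *Kat8* below it. *Kat8* with 7.48 ± 0.539 RPKM and *Kat2b* with 6.83 ± 0.867 RPKM (SD, n = 4) overlapped. *Crebbp* with 3.95 ± 0.936 RPKM and *Kat6b* with 2.10 ± 0.363 RPKM (SD, n = 4) had the lowest levels and were separate from each other. The order depends on the length used for a gene. With the transcript that has the longest coding sequence, *Hat1* (49.2 RPKM) came before *Kat2a* (47.2 RPKM), *Ep300* (15.5 RPKM) before *Kat6a* (14.8 RPKM), and *Kat6b* stayed last at 4.59 RPKM.

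**Figure D1:**
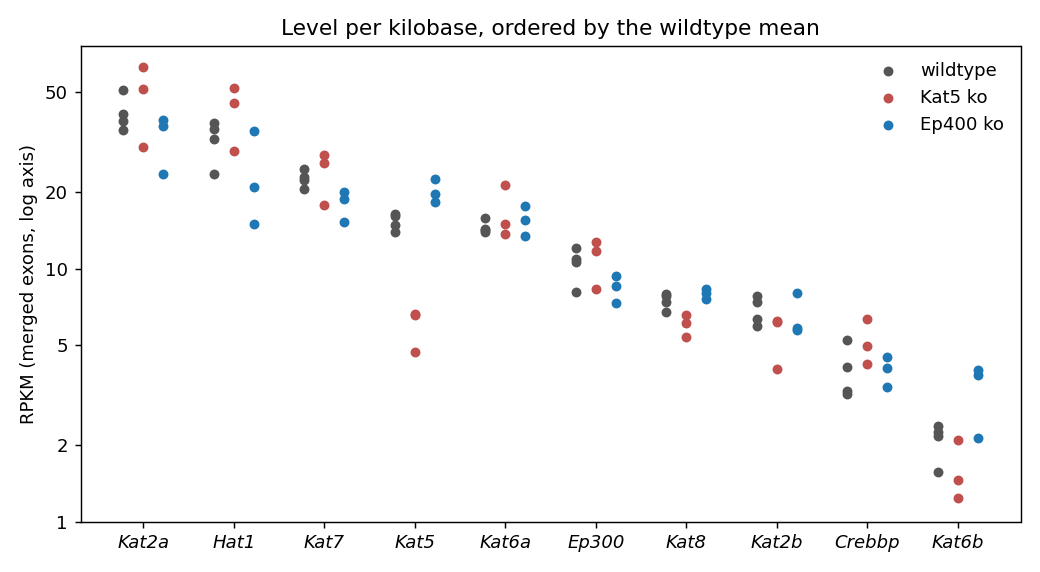
Level of *Kat5* and of the 9 other acetyltransferase genes in RPKM per kilobase of merged exons (log axis) in 4 wildtype, 3 Kat5 ko and 3 Ep400 ko libraries, 1 point per library, ordered by the wildtype mean. Apart from *Kat5*, points of the 3 groups lie close together within each gene compared with the distance between the ends of the order (41.3 RPKM for *Kat2a* and 2.10 RPKM for *Kat6b* in wildtype).

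Several of the 9 genes are paralogs, and their counts can only be read separately if their sequences differ. Among all 55 pairs formed by the 9 genes, *Kat5* and *Ep400*, the longest identical stretch of coding sequence had 35 bases and belonged to *Kat6a* and *Kat6b*. The next pair of paralogs was *Ep300* and *Crebbp* with 29 bases, and *Kat2a* and *Kat2b* shared at most 19. *Kat5* shared at most 18 bases with any of the 9. The following lines show these stretches in capitals with 15 coding bases on each side, from GENCODE M21 transcripts on GRCm38, each 5′ to 3′ on its coding strand within 1 exon.
Kat6a, chr8:22911805-22911869, plus strand: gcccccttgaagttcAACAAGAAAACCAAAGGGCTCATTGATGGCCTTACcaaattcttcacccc
Kat6b, chr14:21625038-21625102, plus strand: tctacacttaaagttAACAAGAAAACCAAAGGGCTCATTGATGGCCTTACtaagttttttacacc
Ep300, chr15:81631782-81631840, plus strand: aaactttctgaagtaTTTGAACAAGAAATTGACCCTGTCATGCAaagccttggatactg
Crebbp, chr16:4108049-4108107, minus strand: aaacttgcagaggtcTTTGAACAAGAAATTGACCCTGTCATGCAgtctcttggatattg
Kat2a, chr11:100711427-100711475, minus strand: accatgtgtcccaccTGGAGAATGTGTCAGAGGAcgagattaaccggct
Kat2b, chr17:53624355-53624403, plus strand: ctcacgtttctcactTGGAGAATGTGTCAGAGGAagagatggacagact

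Outside the capitals the paralogs differed within a few bases, with 16 of 30 flanking bases equal for *Kat6a* and *Kat6b*, 21 of 30 for *Ep300* and *Crebbp* and 19 of 30 for *Kat2a* and *Kat2b*. A match of at least 95% identity over at least 100 bases in a transcript of another gene was found for 2 of the 9. *Kat2b* matched the pseudogene *Kat2b-ps* over 2479 bases, and this pseudogene had 0 counts in all 10 libraries. *Kat8* overlaps *Prss8* on the opposite strand over 122 exonic bases. Libraries were made with a stranded kit, and whether the counting used the strand was not given in the sources used here.

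None of the 9 genes passed an adjusted p of 0.05 in Kat5 ko against wildtype (0 of 9, with 0.499% of all genes called), in Ep400 ko against wildtype (0 of 9, with 13.9% called) or in Ep400 ko against Kat5 ko (0 of 9, with 7.32% called) by edgeR. At an unadjusted p of 0.05, 0 of 9 passed in Kat5 ko, 2 of 9 in Ep400 ko and 2 of 9 between the knockouts, where 22.3%, 32.3% and 32.4% of all genes did. DESeq2 called 0, 0 and 1 of the 9, beside 9.78%, 19.4% and 19.1% of all genes. All knockout libraries lay above the wildtype range for 0 of 9 genes in Kat5 ko (8.72% of all genes) and 0 of 9 in Ep400 ko (16.1%), and below it for 1 of 9 in Kat5 ko (10.9%) and 1 of 9 in Ep400 ko (14.1%). Ep400 ko lay above Kat5 ko for 1 of 9 (19.5%) and below it for 0 of 9 (19.4%). In Kat5 ko a count of 0 of 9 lies at the background share and is no result about these genes, for which the intervals are given next. Both comparisons with wildtype share the same 4 wildtype libraries.

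In Kat5 ko, the 95% intervals of all 9 log2-fold changes lay between −0.95 and 0.86. A rise by 2-fold was outside every interval, and so was a fall by 2-fold. The highest upper bounds belonged to *Hat1*, with a 1.81-fold rise, and *Crebbp*, with a 1.80-fold rise. Without Kat5/1 the highest and the lowest bound lay farther from no change. All 9 intervals still stayed below a 2-fold rise, with upper bounds of 1.998-fold for *Crebbp* and 1.98-fold for *Hat1*, but the interval of *Kat6b* (−1.15 to −0.19) then included a 2-fold fall. In Ep400 ko, 8 of 9 intervals stayed below a 2-fold rise, the exception being *Kat6b*, and 8 of 9 stayed above a 2-fold fall, the exception being *Hat1*. The median log2-fold change of the 9 genes was 0.05 in Kat5 ko and −0.07 in Ep400 ko, beside medians over all tested genes of 3.2e-05 and 0.04.

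**Figure D2:**
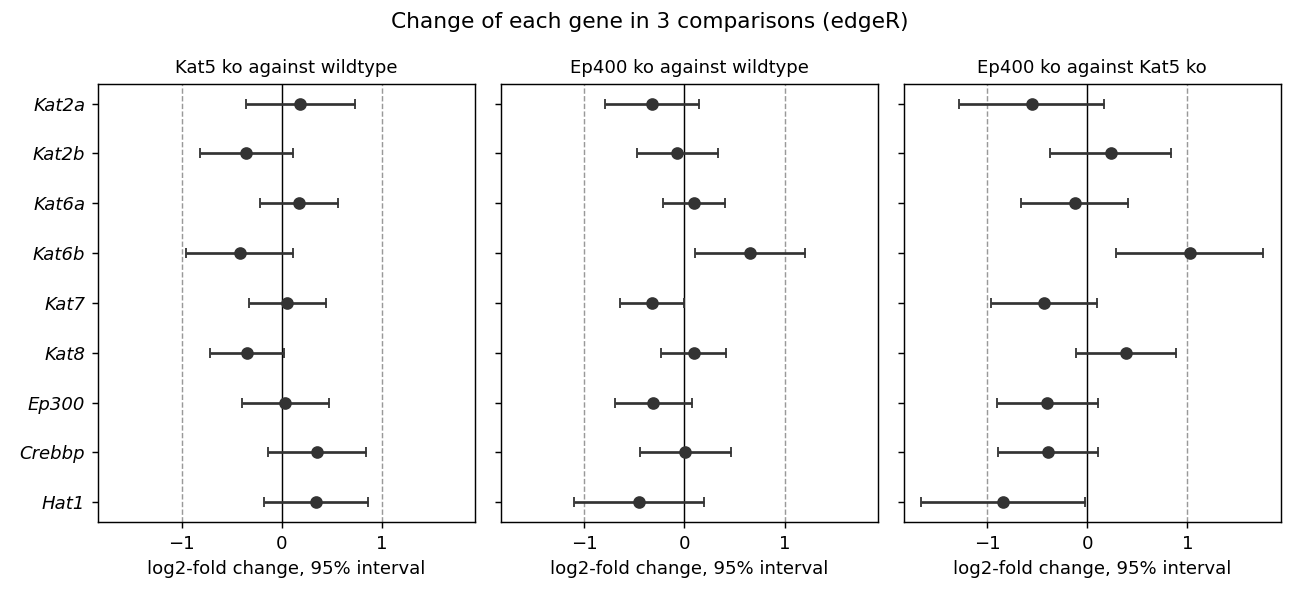
Log2-fold change of each of the 9 genes (points) with its 95% interval (bars) by edgeR in Kat5 ko against wildtype, Ep400 ko against wildtype and Ep400 ko against Kat5 ko. Solid lines mark no change and dashed lines a 2-fold change, and in Kat5 ko all 9 intervals include no change and stay inside the dashed lines, whereas *Kat6b* lies farthest to the right in the other comparisons.

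*Kat2a* and *Kat2b* exclude each other in SAGA and ATAC, the co-activator complexes that acetylate histone H3 at promoters. *Kat2a* (ENSMUSG00000020918, chr11:100704746-100712465, minus strand of GRCm38, as all coordinates that follow) had 143, 134, 176 and 123 CPM in wildtype, 106, 217 and 179 CPM in Kat5 ko and 135, 128 and 82.1 CPM in Ep400 ko. Kat5/1 lay below the wildtype range and the other two Kat5 ko clones above it, and the log2-fold change of 0.18 (95% interval −0.36 to 0.73, adjusted p = 0.687, edgeR) summarises clones on either side of wildtype. Without Kat5/1 it was 0.43, with an adjusted p of 0.114 by edgeR. In Ep400 ko the log2-fold change was −0.32 (−0.79 to 0.14, adjusted p = 0.303, edgeR), and Ep400/3 was the lowest of all libraries.

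*Kat2b* (ENSMUSG00000000708, chr17:53566861-53672720, plus strand) had 30.8, 28.7, 37.8 and 35.8 CPM in wildtype, 30.0, 30.2 and 19.5 CPM in Kat5 ko and 27.8, 28.2 and 38.9 CPM in Ep400 ko. The low value of Kat5/3 set the log2-fold change of −0.35 in Kat5 ko (95% interval −0.82 to 0.11, adjusted p = 0.339, edgeR). The same library had a median change over all genes of chromosome 17, where *Kat2b* lies, of −0.34 on the log2 scale. In Ep400 ko the log2-fold change was −0.07 (−0.48 to 0.34), and groups overlapped.

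The ratio of *Kat2a* to *Kat2b* in RPKM was 6.47, 6.51, 6.52 and 4.80 in wildtype. It reached 10.04 and 12.8 in Kat5/2 and Kat5/3, above all wildtype libraries, and 4.92 in Kat5/1. In Ep400/1 and Ep400/2 it was 6.76 and 6.32, and in Ep400/3 it was 2.95, below all wildtype libraries. The balance of these paralogs thus differed between clones of the same knockout by more than among the wildtype samples.

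*Hat1* (ENSMUSG00000027018, chr2:71388958-71441622, plus strand) acts with histone chaperones on newly made histones. It had 93.9, 109, 68.5 and 103 CPM in wildtype, 83.9, 129.9 and 149.6 CPM in Kat5 ko and 101, 60.4 and 43.4 CPM in Ep400 ko. Kat5/2 and Kat5/3 exceeded every wildtype library, Ep400/2 and Ep400/3 were below every wildtype library, and the first clone of each knockout lay within the wildtype range. The log2-fold change was 0.34 in Kat5 ko (95% interval −0.17 to 0.86, adjusted p = 0.401, edgeR) and −0.45 in Ep400 ko (−1.10 to 0.20, adjusted p = 0.301, edgeR). In Ep400 ko against Kat5 ko it was −0.84 (−1.66 to −0.02), with an unadjusted p of 0.0454 in edgeR's test and an adjusted p of 0.146.

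Whether *Hat1* passed in Ep400 ko depended on Ep400/1. Without this clone, the only one of the 3 with frameshifts in all alleles, the log2-fold change was −0.85 with an adjusted p of 0.0499 by edgeR, where 14.3% of all genes were called. The spread of *Hat1* among Ep400 ko clones, 2.33-fold between the lowest and highest, exceeded the 1.58-fold spread among wildtype samples. *Hat1* lies on chromosome 2, whose median over all genes moved by 0.03 to 0.13 on the log2 scale in the 3 Ep400 ko clones.

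**Figure D3:**
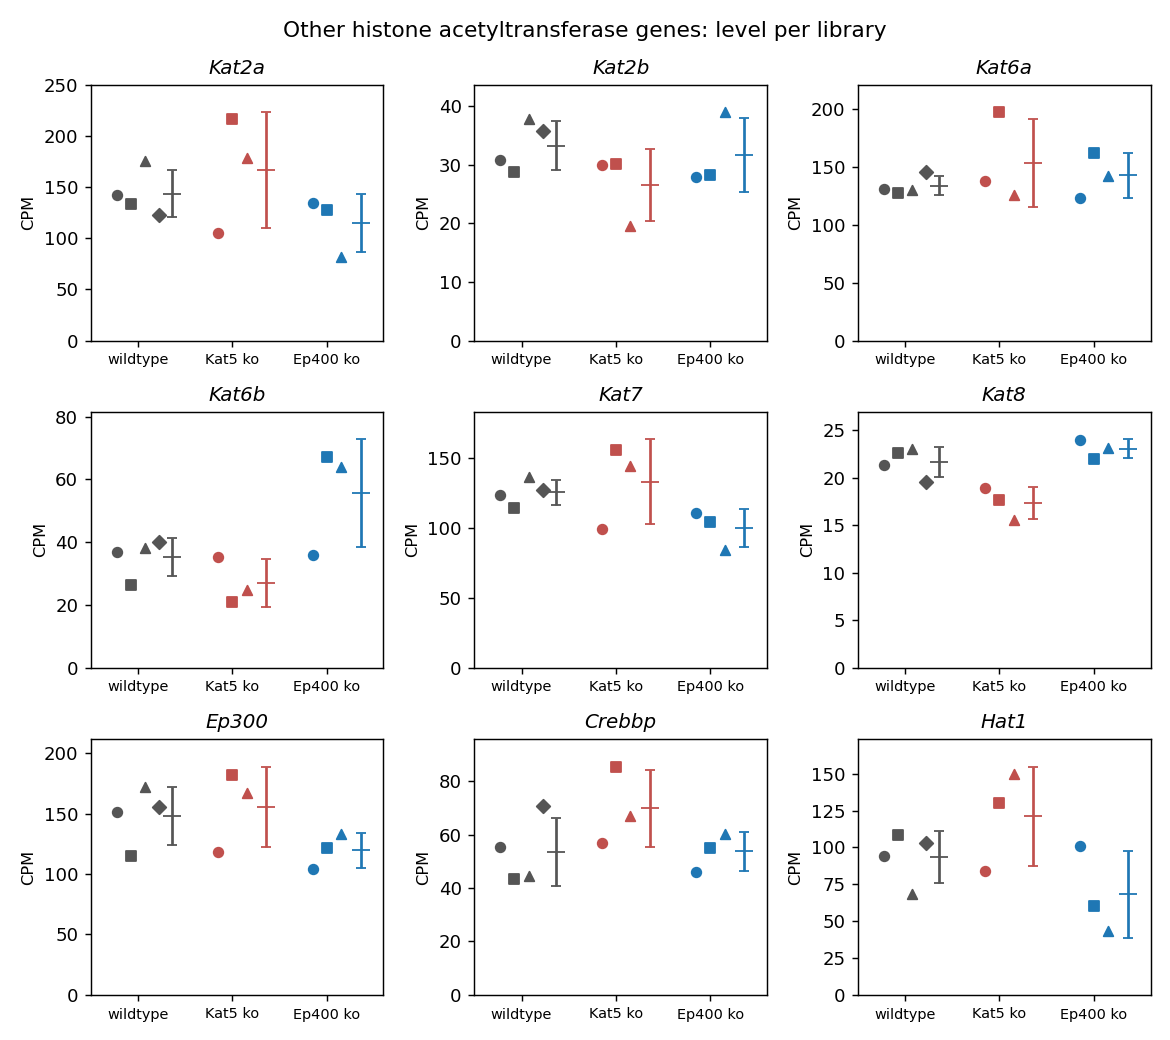
Level of each of the 9 genes in CPM in the 4 wildtype, 3 Kat5 ko and 3 Ep400 ko libraries, with the mean and SD as bars, marker shapes for the replicate or clone number and vertical axes from 0. *Kat8* is lower in all 3 Kat5 ko clones (15.6 to 18.9 CPM) than in any wildtype sample (19.5 to 23.0 CPM), *Kat7* is lower in all Ep400 ko clones, and most other groups overlap.

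*Kat6a* and *Kat6b* are alternative catalytic subunits of complexes built on Brpf scaffolds and acetylate histone H3. *Kat6a* (ENSMUSG00000031540, chr8:22859535-22943259, plus strand) had the smallest spread of the 9 genes among wildtype samples, 1.14-fold, with 131, 128, 130.3 and 146 CPM in wildtype, 138, 197 and 126 CPM in Kat5 ko and 123, 162 and 142 CPM in Ep400 ko. Kat5/2 and Ep400/2 were above the wildtype range and Kat5/3 and Ep400/1 below it. The log2-fold change was 0.17 in Kat5 ko (95% interval −0.22 to 0.56, adjusted p = 0.590, edgeR) and 0.09 in Ep400 ko (−0.22 to 0.40, adjusted p = 0.677, edgeR).

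*Kat6b* (ENSMUSG00000021767, chr14:21481434-21672478, plus strand) had log2-fold changes of opposite sign in the knockouts. It had 36.8, 26.4, 38.1 and 40.0 CPM in wildtype, 35.4, 20.8 and 24.6 CPM in Kat5 ko and 36.04, 67.1 and 63.8 CPM in Ep400 ko. Kat5/2 and Kat5/3 were below all wildtype libraries and Ep400/2 and Ep400/3 above them, whereas Kat5/1 and Ep400/1 lay within the wildtype range. The log2-fold change was −0.42 in Kat5 ko (95% interval −0.95 to 0.12, adjusted p = 0.323, edgeR) and 0.66 in Ep400 ko (0.11 to 1.20), with an unadjusted p of 0.0241 in edgeR's test and an adjusted p of 0.101.

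Set directly against each other, Ep400 ko clones exceeded Kat5 ko clones in *Kat6b* by 1.02 on the log2 scale (95% interval 0.28 to 1.76), with an adjusted p of 0.0778 by edgeR. DESeq2 gave a log2-fold change of 1.03 and an adjusted p of 0.0335, with 19.1% of all genes called. EdgeR with all 10 libraries in a single fit gave 1.05 and an adjusted p of 0.0234. Both settings called more genes than the main fit, in which 7.32% were called. Without Kat5/1 the value was 1.27 (adjusted p = 0.0428, edgeR, with 18% of all genes called), and without Ep400/1 it was 1.25 (adjusted p = 0.0597, edgeR). Against wildtype, *Kat6b* in Ep400 ko passed without Ep400/1 (0.89, adjusted p = 0.0259, edgeR, with 14.3% of all genes called). In Kat5 ko without Kat5/1 it had a log2-fold change of −0.67 and an adjusted p of 0.0594 by edgeR.

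The ratio of *Kat6a* to *Kat6b* in RPKM was 6.53, 8.87, 6.28 and 6.67 in wildtype. It was 6.26, 4.44 and 4.09 in Ep400 ko, all below the wildtype range, though Ep400/1 lay close to its lower end. In Kat5 ko it was 7.14, 17.3 and 9.37, and Kat5/2 and Kat5/3 lay above all wildtype libraries. The ratio was not corrected for chromosome medians. In Ep400/1, Ep400/2 and Ep400/3 these were −0.237, −0.022 and −0.218 on the log2 scale for chromosome 8, where *Kat6a* lies. For chromosome 14, where *Kat6b* lies, they were 0.119, 0.107 and 0.043. Less these medians, *Kat6a* was at 0.118, 0.302 and 0.307 in the 3 clones, and *Kat6b* at −0.090, 0.818 and 0.810.

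*Kat7* (ENSMUSG00000038909, chr11:95274259-95310246, minus strand) is the catalytic subunit of complexes with Brpf or Jade scaffolds and is known for its role in DNA replication. It had 123, 114, 136 and 127 CPM in wildtype, 98.8, 156 and 144 CPM in Kat5 ko and 111, 104 and 84.3 CPM in Ep400 ko. All 3 Ep400 ko clones were below the wildtype range, as were 14.1% of all tested genes. The log2-fold change of −0.33 in Ep400 ko (95% interval −0.65 to −0.008) had an unadjusted p of 0.0456 in edgeR's test and an adjusted p of 0.147. In Kat5 ko it was 0.05 (−0.33 to 0.44, adjusted p = 0.879, edgeR), with Kat5/1 below and the other two clones above the wildtype range.

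*Kat8* (ENSMUSG00000030801, chr7:127912516-127925837, plus strand) acetylates histone H4 in the MSL and NSL complexes. It had 21.3, 22.6, 23.0 and 19.5 CPM in wildtype, 18.9, 17.6 and 15.6 CPM in Kat5 ko and 23.97, 21.98 and 23.1 CPM in Ep400 ko. All 3 Kat5 ko clones were below every wildtype library, as were 10.9% of all tested genes, and all 3 Ep400 ko clones were above every Kat5 ko clone, as were 19.5% of all genes in that comparison. In Kat5 ko the log2-fold change was −0.35 (95% interval −0.71 to 0.024), with an unadjusted p of 0.0633 in edgeR's test and an adjusted p of 0.249. In Ep400 ko against Kat5 ko it was 0.39 (−0.11 to 0.89, adjusted p = 0.247, edgeR).

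Of the 9 genes, *Kat8* had the smallest spread within Kat5 ko clones, with a 1.21-fold range. Its log2-fold change in Kat5 ko stayed between −0.42 and −0.26 when each library was left out in turn. Chromosome 7, where *Kat8* lies, had median changes of 0.13, −0.02 and 0.04 on the log2 scale in the 3 Kat5 ko clones. With offsets for the chromosome medians, *Kat8* had a log2-fold change of −0.39 and an adjusted p of 0.162 by edgeR.

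*Ep300* and *Crebbp* code for paralogous co-activators that acetylate histones at enhancers and bind many transcription factors, among them Creb1. *Ep300* (ENSMUSG00000055024, chr15:81585351-81652077, plus strand) had 151, 115, 172 and 155 CPM in wildtype, 118, 182 and 167 CPM in Kat5 ko and 104, 122 and 133 CPM in Ep400 ko. The log2-fold change was 0.04 in Kat5 ko (95% interval −0.40 to 0.47, adjusted p = 0.929, edgeR) and −0.31 in Ep400 ko (−0.69 to 0.07, adjusted p = 0.236, edgeR). Groups overlapped in both comparisons.

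*Crebbp* (ENSMUSG00000022521, chr16:4081328-4213997, minus strand) had 55.3, 43.3, 44.6 and 70.7 CPM in wildtype, 57.0, 85.4 and 67.0 CPM in Kat5 ko and 45.9, 55.0 and 60.3 CPM in Ep400 ko. Wildtype samples alone differed by 1.63-fold between the lowest and highest. The log2-fold change was 0.35 in Kat5 ko (95% interval −0.14 to 0.84, adjusted p = 0.366, edgeR), 0.48 without Kat5/1 (adjusted p = 0.165, edgeR) and 0.01 in Ep400 ko (−0.45 to 0.46, adjusted p = 0.986, edgeR). The ratio of *Ep300* to *Crebbp* in RPKM was 2.08 to 3.66 in wildtype, 1.97, 2.02 and 2.36 in Kat5 ko and 2.16, 2.10 and 2.09 in Ep400 ko. Chromosome 16, where *Crebbp* lies, had medians of 0.217, 0.185 and 0.143 on the log2 scale in Kat5/1, Kat5/2 and Kat5/3. In WT/3, the library with the ratio of 3.66, its median was −0.311. Less these medians, *Crebbp* was at −0.125, 0.491 and 0.181 in Kat5/1, Kat5/2 and Kat5/3.

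Summed over the 9 genes, transcript levels were 141, 137, 147 and 142 RPKM in wildtype. They were 119.6, 189 and 170.4 RPKM in Kat5 ko clones, where Kat5/1 was below and the others above the wildtype range, and 134, 124 and 103 RPKM in Ep400 ko clones, all below it. *Kat2a* and *Hat1*, the most abundant of the 9, weigh most in this sum. *Kat2a* and *Kat7* both lie on chromosome 11, whose median was −0.21, −0.21 and −0.26 on the log2 scale in Ep400/1, Ep400/2 and Ep400/3. The sum was not corrected for this. The sum over the 4 MYST genes *Kat6a*, *Kat6b*, *Kat7* and *Kat8* was 46.1, 43.9, 49.0 and 48.0 RPKM in wildtype, 41.5, 57.0 and 46.6 RPKM in Kat5 ko and 43.9, 48.1 and 42.5 RPKM in Ep400 ko. Kat5/2 was above the wildtype range, and Kat5/1, Ep400/1 and Ep400/3 were below it. In the Kat5 ko clones *Kat5* itself was at 6.53, 4.68 and 6.60 RPKM, compared with 13.9 to 16.4 RPKM in wildtype.

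Counted by clone, Kat5/1 had 0 of the 9 genes above the wildtype range and 3 below it, Kat5/2 had 6 above and 2 below, and Kat5/3 had 3 above and 4 below. Ep400/1 had 1 above and 4 below, Ep400/2 had 2 above and 3 below, and Ep400/3 had 3 above and 3 below. Over all 14095 genes, the share above the wildtype range was 27.8%, 33.6% and 33.2% in the Kat5 ko clones and 31.9%, 33.3% and 37.5% in the Ep400 ko clones, and the share below it was 27.7%, 34% and 31.9%, and 29.4%, 31.8% and 34.4%. With 4 wildtype samples the range is narrow, and these counts describe the clones without a test.

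*Kat2a* and *Kat7* followed each other across the 10 libraries, with a Pearson correlation of 0.95 of their log2 levels. This is a description over libraries that include replicates of 3 groups. Both genes lie on chromosome 11, at 100704746 to 100712465 and 95274259 to 95310246 on the minus strand of GRCm38. The median over all genes of this chromosome was −0.21, −0.21 and −0.26 on the log2 scale in the 3 Ep400 ko clones relative to the wildtype mean. In the 3 Kat5 ko clones it was −0.12, 0.18 and 0.19. The chromosome therefore moved in the same direction as *Kat2a* and *Kat7* in all 6 clones.

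After the chromosome's median was subtracted in each library, the correlation of *Kat2a* and *Kat7* was 0.88. With offsets for the chromosome medians in edgeR, the log2-fold change in Ep400 ko was −0.11 (adjusted p = 0.591) for *Kat7* and −0.10 (adjusted p = 0.740) for *Kat2a*. *Kat7* thus lost most of its difference in Ep400 ko. *Ep300*, on chromosome 15, went from −0.31 to −0.18 (adjusted p = 0.448, edgeR). *Kat6b* stayed at 0.57 in Ep400 ko (adjusted p = 0.148, edgeR) and at 1.01 between the knockouts (adjusted p = 0.0926, edgeR).

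**Figure D4:**
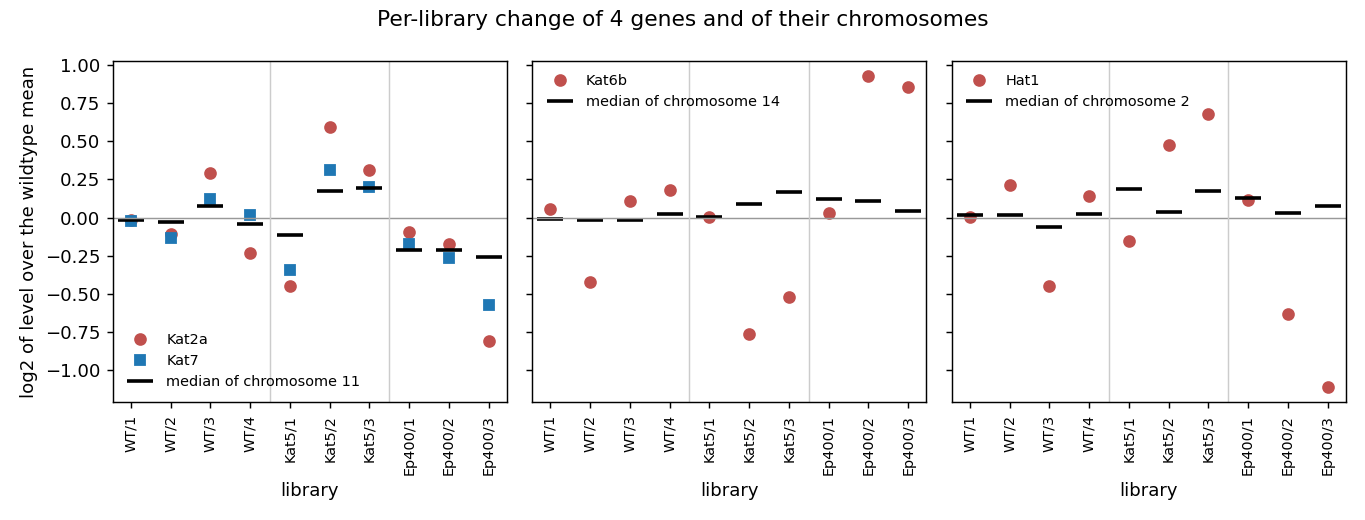
Log2 of the level of *Kat2a* and *Kat7*, *Kat6b* and *Hat1* in each library over the wildtype mean (points), with the median of the same quantity over all genes of their chromosome (bars), in 4 wildtype, 3 Kat5 ko and 3 Ep400 ko libraries. *Kat2a* and *Kat7* lie on the same side as the median of chromosome 11 in all 6 clones, whereas *Kat6b* and *Hat1* reach 0.93 and −1.11 in single clones while the medians of their chromosomes stay between 0.003 and 0.19 in all 6 clones.

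*Hat1* and *Kat6b* had the strongest inverse relation among the 36 pairs, with a Pearson correlation of −0.89 across the 10 libraries and −0.91 after the medians of chromosomes 2 and 14 were subtracted. *Kat6b* and *Kat7* had −0.75, and −0.54 after subtraction. *Crebbp* and *Kat8* went from −0.74 to −0.39, *Hat1* and *Kat7* from 0.76 to 0.72, and *Ep300* and *Kat7* from 0.74 to 0.19. These values are descriptions over the same 10 libraries.

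To show the regions before the start sites of the genes that moved together or against each other, the 250 bases upstream of the RefSeq start are given for 4 genes, on GRCm38.p6, 5′ to 3′ on the strand of the gene. For *Kat6b* the first of 2 listed starts was taken. The windows of *Hat1* and *Kat6b* lie inside the genes as GENCODE M21 places them, with starts at 71388958 and 21481434. Capitals mark matches on either strand to the GC box (GGGCGG), the CCAAT box (CCAAT), the E-box (CACGTG), an ETS site (CCGGAAG) and the core of a CRE (TGACG), and matches that overlap run together.
Kat2a, chr11:100712468-100712717, minus strand: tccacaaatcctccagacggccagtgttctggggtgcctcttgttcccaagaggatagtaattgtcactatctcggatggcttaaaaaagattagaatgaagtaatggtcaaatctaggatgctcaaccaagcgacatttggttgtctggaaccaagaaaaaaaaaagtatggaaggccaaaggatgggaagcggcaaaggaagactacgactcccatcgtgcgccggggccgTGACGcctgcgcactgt
Kat7, chr11:95310247-95310496, minus strand: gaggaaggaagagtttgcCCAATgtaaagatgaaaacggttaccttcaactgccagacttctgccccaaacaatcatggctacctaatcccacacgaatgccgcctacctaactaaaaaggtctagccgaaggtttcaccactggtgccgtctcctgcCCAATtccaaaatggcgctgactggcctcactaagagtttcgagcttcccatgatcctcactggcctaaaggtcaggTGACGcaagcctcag
Hat1, chr2:71389010-71389259, plus strand: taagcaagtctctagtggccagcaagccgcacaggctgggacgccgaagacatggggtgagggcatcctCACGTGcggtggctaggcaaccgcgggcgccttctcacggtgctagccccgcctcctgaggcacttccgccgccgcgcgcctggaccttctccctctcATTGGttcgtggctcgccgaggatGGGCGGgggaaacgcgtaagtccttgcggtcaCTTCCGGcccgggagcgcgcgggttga
Kat6b, chr14:21499520-21499769, plus strand: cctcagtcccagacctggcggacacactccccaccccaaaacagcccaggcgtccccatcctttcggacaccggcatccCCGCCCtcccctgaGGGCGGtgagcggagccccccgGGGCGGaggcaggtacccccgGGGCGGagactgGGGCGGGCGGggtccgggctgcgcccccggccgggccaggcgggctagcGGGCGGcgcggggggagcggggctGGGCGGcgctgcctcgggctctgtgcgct

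*Kat2a* and *Kat7* each hold 1 CRE core close to the start, which 17.8% of 32851 RefSeq promoter windows of this length hold as well, and no GC box. The CRE core is also in 1 of 2 windows of *Kat8* and of *Kat2b*, and *Kat2b*, whose correlation with *Kat2a* was −0.40, has no GC box either. *Kat7* also has 2 CCAAT boxes, present in 33.8% of all windows. Their windows have 48.8% and 50.8% G and C, near the median of 52.4% over all windows. *Kat6b* has 8 matches to the GC box, which 32.7% of all windows hold at least once, and 78.8% G and C. *Hat1* has 1 GC box, 1 CCAAT box, 1 E-box (in 6.02% of all windows) and 1 ETS site (in 6.91%). Matches are descriptions of letters only.

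Complex partners of the 9 genes were examined as lists of known subunits, which gives the context in which each enzyme works. In Kat5 ko, 0 of 9 scaffolds and small subunits of the Kat6a, Kat6b and Kat7 complexes passed an adjusted p of 0.05 by edgeR. The same held for 0 of 12 MSL and NSL subunits and 0 of 22 tested SAGA and ATAC subunits. It also held for 0 of 7 tested CREB and CITED partners and 0 of 6 chaperones acting with Hat1. At an unadjusted p of 0.05 they were 3, 2, 4, 1 and 3 genes, where 22.3% of all genes passed, so that the counts of the MSL and NSL, SAGA and ATAC, and CREB and CITED lists lay below that share. DESeq2 called 1 gene of each of the first 4 lists and 0 chaperones, beside 9.78% of all genes. The genes with the smallest p in each list were *Jade1* (0.61), *Wdr5* (0.57), *Sgf29* (0.79), *Cited2* (1.02) and *Ipo4* (0.60), with log2-fold changes in parentheses and adjusted p-values by edgeR from 0.0705 to 0.115.

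Without Kat5/1, when 19.3% of all genes were called, still 0 of the 9 acetyltransferase genes passed, while 4 had an unadjusted p of at most 0.05. Of the partners, 3 of 9 scaffolds and small subunits and 3 of 12 MSL and NSL subunits passed. So did 4 of 22 SAGA and ATAC subunits, 2 of 7 CREB and CITED partners and 4 of 6 chaperones. Named after their values were seen, the chaperone genes that passed in Kat5/2 and Kat5/3 were *Ipo4*, an importin for histones (0.80, adjusted p = 0.00567, edgeR), *Nasp* (0.68), *Asf1b* (0.80) and *Rbbp7* (0.38). *Hat1*, whose protein works with these chaperones, had 0.55 in the same fit with an adjusted p of 0.0793.

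In Ep400 ko, 3 of 9 scaffolds and small subunits passed, 2 higher and 1 lower, beside 8.09% of all genes higher and 5.76% lower. *Jade1*, a scaffold of the Kat7 complex, fell from 29.8, 31.6, 29.9 and 34.9 CPM in wildtype to 18.8, 17.6 and 12.1 CPM (log2-fold change −0.96, adjusted p = 0.0151, edgeR). *Meaf6*, a small subunit shared by the Kat6a, Kat6b and Kat7 complexes and by the Tip60 complex, rose (0.59, adjusted p = 0.0383, edgeR), as did *Brpf3* (0.52, adjusted p = 0.0497, edgeR). In *Jade1* the Ep400 ko clones were below every wildtype sample. With each library left out in turn, between 1 and 2 of the 9 scaffolds and small subunits passed. Between the knockouts *Jade1* differed by −1.62 (adjusted p = 0.0295, edgeR) and *Jade3* by −1.10 (adjusted p = 0.0455, edgeR).

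Of the 22 tested SAGA and ATAC subunits, 3 fell in Ep400 ko and 0 rose, beside the same 5.76% and 8.09% of all genes. *Usp22*, the ubiquitin protease of SAGA, had 143, 141, 129 and 159 CPM in wildtype and 60.8, 69.2 and 103 CPM in Ep400 ko (log2-fold change −0.88, adjusted p = 0.0232, edgeR). *Atxn7l3*, which activates Usp22, fell by 0.52 (adjusted p = 0.0374, edgeR) and *Tada2a*, an adaptor of ATAC, fell by 0.60 (adjusted p = 0.0424, edgeR) on the log2 scale. All 3 genes lie on chromosome 11 together with *Kat2a*, and with offsets for the chromosome medians 0 of 22 subunits passed. Their log2-fold changes were then −0.65 for *Usp22* (adjusted p = 0.0726, edgeR), −0.30 for *Atxn7l3* and −0.37 for *Tada2a*, so that most of the difference in *Usp22* was still there. The count was also 0 without WT/1, WT/2, WT/4 or Ep400/2, with log2-fold changes over all libraries left out in turn of −1.14 to −0.73 for *Usp22*, −0.58 to −0.45 for *Atxn7l3* and −0.70 to −0.47 for *Tada2a*.

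In Ep400 ko 0 of 12 MSL and NSL subunits, 0 of 7 CREB and CITED partners and 0 of 6 chaperones passed by edgeR, beside 13.9% of all genes. At an unadjusted p of 0.05 there were 2, 2 and 1, each share below the 32.3% of all genes, and DESeq2 called 1, 0 and 1, beside 19.4%. The smallest p belonged to *Msl1* (−0.39), *Crtc1* (0.61) and *Ipo4* (−0.59), with adjusted p-values by edgeR of 0.0702, 0.0861 and 0.0724. All 6 chaperone genes had negative log2-fold changes in Ep400 ko, with a median of −0.33, beside 0.04 over all genes. Only 3 of the 6 lay below the wildtype range in all Ep400 ko clones. *Asf1b* had −0.013, and its levels in Ep400/1 and Ep400/2 (63.1 and 57.9 CPM) exceeded every wildtype sample (at most 56.4 CPM). A shared sign also occurred in Kat5 ko, where all 12 MSL and NSL subunits and all 7 tested CREB and CITED partners had positive changes. Between the knockouts *Ipo4* differed by −1.24 (adjusted p = 0.0482, edgeR).

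**Figure D5:**
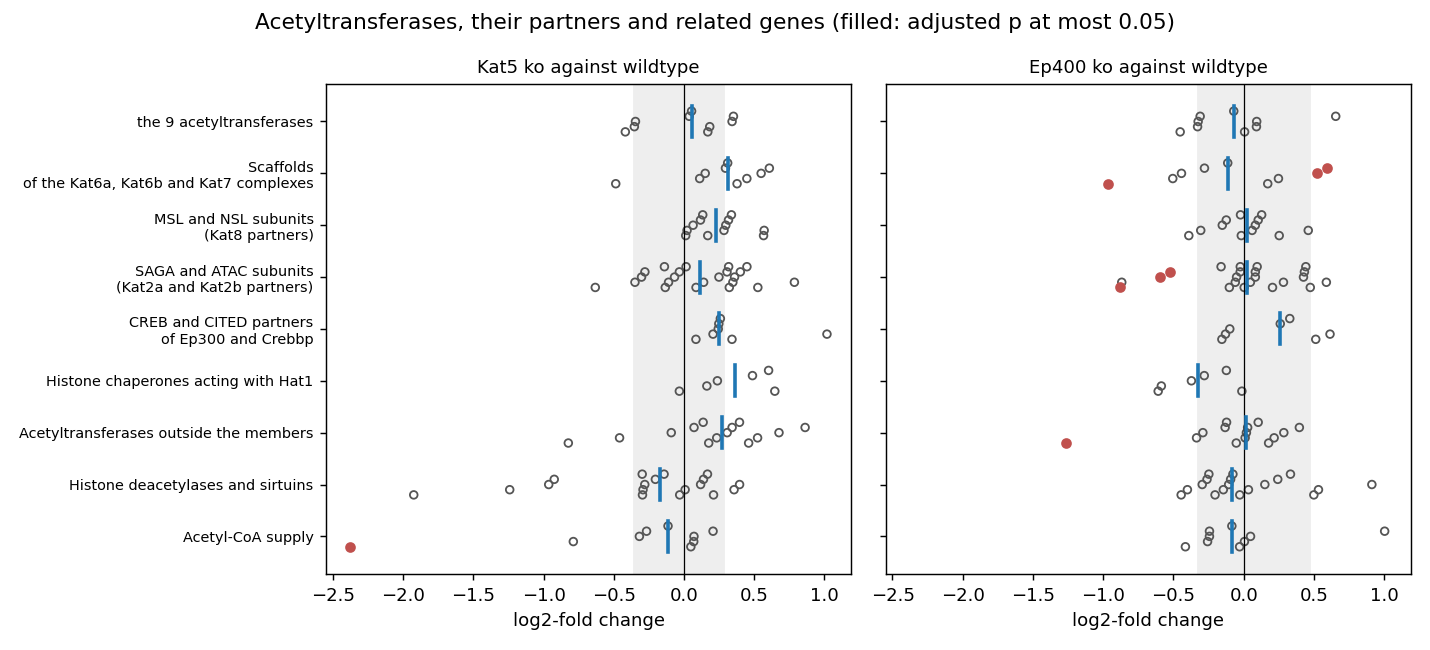
Log2-fold change by edgeR of the 9 acetyltransferase genes, their partners and related genes in Kat5 ko (left) and Ep400 ko (right) against wildtype, 1 circle per tested gene, filled where the adjusted p was at most 0.05, with blue lines at list medians and a grey band for the quartiles of all tested genes (−0.36 to 0.29 in Kat5 ko and −0.32 to 0.47 in Ep400 ko). The only filled circle on the left is *Acss2*. Those on the right are 3 genes of the list labelled scaffolds, which also holds small subunits, 3 SAGA and ATAC subunits and *Naa10*, with none of the 9 genes.

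Acetyltransferases outside the 9 genes were 14 in number and include enzymes for other substrates. In Kat5 ko 0 of 14 passed by edgeR (0.499% of all genes), 5 had an unadjusted p of at most 0.05 (22.3% of all genes) and DESeq2 called 2 (9.78%). Without Kat5/1, 5 of 14 passed, where 19.3% of all genes were called. *Nat10*, an acetyltransferase of RNA, had the smallest p (log2-fold change 0.86, adjusted p = 0.0725, edgeR). In Ep400 ko 1 of 14 passed, a share below the 13.9% of all genes. *Naa10*, the catalytic subunit of the main N-terminal acetyltransferase, fell from 32.7, 34.8, 33.5 and 31.3 CPM to 13.6, 16.4 and 11.4 CPM (log2-fold change −1.26, adjusted p = 0.00444, edgeR). It differed by −1.66 between the knockouts (adjusted p = 0.0233, edgeR).

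The opposing enzymes, 18 histone deacetylases and sirtuins, had 0 calls in Kat5 ko and 0 in Ep400 ko by edgeR, beside 0.499% and 13.9% of all genes. At an unadjusted p of 0.05 there were 4 and 3, beside 22.3% and 32.3% of all genes, and DESeq2 called 3 and 2, beside 9.78% and 19.4%, so that neither count at unadjusted p exceeded the background share. Without Kat5/1, 6 of 18 passed in Kat5 ko, where 19.3% of all genes were called. *Hdac11* had the smallest p in Kat5 ko, with 12.9, 14.6, 11.2 and 12.3 CPM in wildtype and 4.08, 1.75 and 4.43 CPM in the clones (log2-fold change −1.92, adjusted p = 0.0556, edgeR), and without Kat5/1 it had −2.07 (adjusted p = 0.0142, edgeR). In Ep400 ko it was *Hdac1* (−0.45, adjusted p = 0.0511, edgeR). Between the knockouts *Hdac2* differed by −0.81 (adjusted p = 0.0482, edgeR).

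Acetyl-CoA is the donor used by the acetyltransferases. Of 9 tested genes for its supply, 1 fell and 0 rose in Kat5 ko, beside 0.372% and 0.127% of all genes. In Ep400 ko 0 of 9 passed by edgeR (13.9% of all genes), 1 had an unadjusted p of at most 0.05 (32.3%) and DESeq2 called 1 (19.4%). *Acss2* makes acetyl-CoA from acetate in cytosol and nucleus. It had 27.97, 12.2, 18.5 and 26.1 CPM in wildtype, 5.10, 3.26 and 4.12 CPM in Kat5 ko and 16.1, 63.7 and 47.7 CPM in Ep400 ko. All Kat5 ko clones were below every wildtype library (log2-fold change −2.38, standard error 0.34, adjusted p = 0.0365, edgeR), and the difference between the knockouts was 3.33 (adjusted p = 0.0263, edgeR). In Kat5 ko 0 of the 9 genes passed without WT/1, WT/3, WT/4, Kat5/2 or Kat5/3, although the log2-fold change of *Acss2* stayed between −2.55 and −2.22 with each library left out. Without Kat5/1 it was −2.55 with an adjusted p of 0.0083 by edgeR, and 2 of the 9 genes passed, beside 19.3% of all genes. In Ep400 ko the smallest p belonged to *Pdha1*, a subunit of pyruvate dehydrogenase (−0.41, adjusted p = 0.0704, edgeR).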

How the data were processed

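RNA of 4 wildtype samples, 3 Kat5 ko clones and 3 Ep400 ko clones was enriched for poly-A, made into stranded libraries and sequenced by the authors in paired reads. The processing notes name bcl2fastq 2.20, STAR 2.7.3, the mm10 build, R 4.2.1 and DESeq2 1.36.0. The counting program and annotation are not given in the sources used here. The deposited table holds raw counts per gene (30968945 to 48301792 per library), which were used as they stand. Further deposited tables, in which the authors had scaled the counts of each library by 1 factor, were not used.

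Genes kept by filterByExpr were tested with edgeR 4.0.16 (quasi-likelihood test, TMM scaling, Benjamini-Hochberg adjustment over all genes tested) in R 4.3.3, with only the groups compared in a fit. A gene was called at an adjusted p of at most 0.05. Intervals are 95% intervals from the standard error and the t distribution on the degrees of freedom of the test. CPM were scaled by TMM factors over all 10 libraries, and RPKM divided them by merged exon length in GENCODE M21, to which 42462 of 43346 genes matched by Ensembl ID. Chromosome medians are medians of log2 CPM relative to the wildtype mean over the genes of a chromosome (10917 genes in all, with a mean log2 CPM of at least 1). The 9 genes had between 534 and 8106 reads per library, so that the spread between libraries rather than counting error sets the precision of their fold changes.

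The 9 genes, the partner lists and the tests were chosen with earlier results of these data known. The 9 genes were always named. From each list at most 4 called genes per comparison were named, or the gene with the smallest p where none was called. The alternatives were DESeq2 1.42.0, other scalings, no low-count filter, 1 fit over all libraries, a replicate block, offsets by chromosome median and leaving out each library. The length of the longest coding transcript was added after seeing the data. The tests were tried on simulated data first. Identical coding stretches were found in transcripts on GRCm38, copies with BLAST 2.17.0+, and promoter sequences came from RefSeq on GRCm38.p6, where 8 of the 9 genes had an entry and none was listed for *Kat6a*.

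Same-numbered samples of different groups were not paired by any label, and their deviations from the group means correlated between −0.096 and 0.222, so that the samples were treated as unpaired.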

Additional observations from a re-analysis of the deposited data

How the results depend on the processing

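Over the 27 log2-fold changes of the 9 genes, 342 of 369 values under alternatives kept direction and side of the threshold, 5 passed the threshold where the reported value did not, and 22 turned direction. The turns fell on 8 changes whose reported size was at most 0.18 on the log2 scale. With all libraries kept no value moved by more than 0.33, and with 1 library left out none by more than 0.41. The count of the 9 genes that passed stayed at 0 in Kat5 ko under every alternative run. In Ep400 ko it ranged from 0 to 2 with each library left out, the 2 being *Kat6b* and *Hat1* without Ep400/1, and in Ep400 ko against Kat5 ko it ranged from 0 to 1 and was 1 with DESeq2 and 1 in a single fit over all libraries, in each case *Kat6b*. The causes were not tested.

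Turned values in Kat5 ko were, with each library left out, −0.035 to 0.427 for *Kat2a*, −0.039 to 0.305 for *Kat6a*, −0.063 to 0.227 for *Kat7*, −0.076 to 0.199 for *Ep300* and −0.043 to 0.284 for *Ep400*. Scaling by library size alone gave −0.0025 for *Kat7* and −0.019 for *Ep300*, and chromosome offsets gave −0.050 for *Kat7*. In Ep400 ko, *Kat2b* had 0.059 with chromosome offsets and −0.249 to 0.012 with each library left out, and *Kat6a* had −0.034 to 0.185. *Crebbp* had −0.020 with DESeq2, −0.014 with its size factors, −0.036 without a filter and −0.088 to 0.169 with each library left out. Between the knockouts *Kat6a* had 0.0040 with library size alone, 0.057 with chromosome offsets and −0.244 to 0.079 with each library left out. Library size alone shifted the median of all genes by 0.14 on the log2 scale between the knockouts.

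Calls over all genes varied more. In Kat5 ko, beside 67 reported, DESeq2 called 1391, edgeR without a filter 245 and a single fit 26, and leaving out libraries gave 1 to 2651. In Ep400 ko, beside 1917, DESeq2 called 3175 and a single fit 1273, and leaving out libraries gave 826 to 2016. Between the knockouts, beside 994, DESeq2 called 3013, no filter gave 1803, a single fit 3539, and leaving out libraries 4 to 2537. With the replicate number as a block, 0, 170 and 213 genes and 0, 0 and 0 of the 9 passed in the 3 comparisons, and *Kat5* in Kat5 ko had −1.39 with an adjusted p of 0.127 by edgeR.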
